A study of Mus musculus with 2 samples.

Results

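The genes described here are 51 secreted signals, receptors, antagonists and feedback regulators of the Wnt pathway, out of 24015 genes in the expression table of cultured mouse embryonic fibroblasts. They were chosen by symbol: the Wnt ligands, the Frizzled receptors with the co-receptors Lrp5 and Lrp6, the R-spondins, the Dkk, Sfrp and Wif1 antagonists, the Axin, Nkd and Dact regulators, and the nuclear factor Lef1. Poly(A)+ RNA was sequenced from 1 library of fibroblasts labelled Adar2-/- and 1 library of fibroblasts labelled Adar2+/+, both grown in DMEM with serum and antibiotics. Adar2, listed under the symbol Adarb1, is an enzyme that converts adenosine to inosine in double-stranded RNA. The labels give neither the age or strain of the embryos nor the number of cultures behind a library, and there was 1 library per genotype. The differences below therefore have no replicate check, and no test between genotypes was made.

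Wnt proteins are lipid-modified secreted signals. They bind a Frizzled receptor together with Lrp5 or Lrp6, which stops the Axin and APC complex from destroying beta-catenin, and beta-catenin then works with TCF and LEF factors on target genes. R-spondins, through the Lgr receptors, keep Frizzled proteins at the cell surface, while Dkk proteins block the co-receptors and Sfrp and Wif1 proteins bind Wnts themselves. Axin2, Nkd1, Lef1, Dkk1 and Notum are widely used as readouts of the pathway because beta-catenin induces them in many tissues. In fibroblasts and embryonic mesenchyme the pathway is known for its part in limb and skin patterning and in the choice between bone, cartilage and fat fates.

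The targeted gene does not check the labels. RPKM is the number of reads scaled by gene length and by the library's total. Adarb1 stood at 25.8 RPKM (1633 reads) in the Adar2-KO library, against 18.4 RPKM (1155 reads) in the Adar2-WT library. The labels do not say which part of the gene was deleted. The edited-site lists held 110 sites for Adar2-KO and 654 for Adar2-WT. The libraries are called KO-labelled and WT-labelled cells below, and each direction rests on those labels. Totals recovered from the deposited values were 9546997 reads for KO-labelled and 9446911 reads for WT-labelled cells. The highest RPKM of any gene was 124.3 in the KO-labelled cells and 107.0 in the WT-labelled cells. This is a ceiling of about 1 read per base (1.19 and 0.997), so differences between abundant genes can be compressed. Folds, shares, sums and level ratios that set abundant genes beside low ones can be compressed as well. Fibroblast markers were high in both libraries, with a sum over 13 markers of 658 RPKM in the KO-labelled and 645 RPKM in the WT-labelled cells, and 5 of the 13 had higher and 8 lower values in the KO-labelled cells. The 2 that were 2-fold apart were Thy1, at 72.1 RPKM in the KO-labelled and 9.40 RPKM in the WT-labelled cells, and Dcn, at 12.3 and 29.7 RPKM in the same order.

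Wnt genes differed between the libraries in both directions. Of the 51 genes, 33 reached 1 RPKM in either library and were compared, and 18 did not, of which 6 were at 0 in both. On the scale of log2(RPKM + 1), 5 of the 33 were higher by 2-fold or more in KO-labelled cells, against 4.42% of all 13867 genes compared. Lower by 2-fold or more were 11, against 7.46% of all genes compared. Together 48.5% of the compared Wnt genes were 2-fold apart, against 11.9% of all genes compared. The median log2 ratio of the Wnt genes was -0.03 and that of all genes compared was 0.01. Higher in the KO-labelled cells were Wnt10b, Lef1, Wnt7b, Wnt9a and Sfrp1. Lower were Dkk3, Rspo3, Nkd2, Wnt16, Rspo1, Sfrp2, Fzd4, Wnt5a, Rspo2, Fzd5 and Wnt4. The member nearest above the 2-fold limit was Wnt4 (log2 ratio -1.13) and the nearest below it was Axin2 (0.95).

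A statistic of the authors gave similar counts. In the authors' deposited table the GFOLD value, a log2 fold change shrunken toward 0 where reads are few, was at least 1 for 6 of the 33 genes (3.21% of all genes compared) and at most -1 for 11 (5.60%). The gene added by that measure was Axin2, with a value of 1.13. Many more genes differed by more than counting error, in the Wnt set and at large. The 95% interval of the log2 ratio of reads lay above 0 for 12 of 32 Wnt genes whose reads could be recovered, against 28.0% of all such genes, and below 0 for 15, against 27.5%. In RNA from whole cultures, fewer cells of a kind and less RNA per cell cannot be told apart, which holds for every difference that follows.

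**Figure D1:**
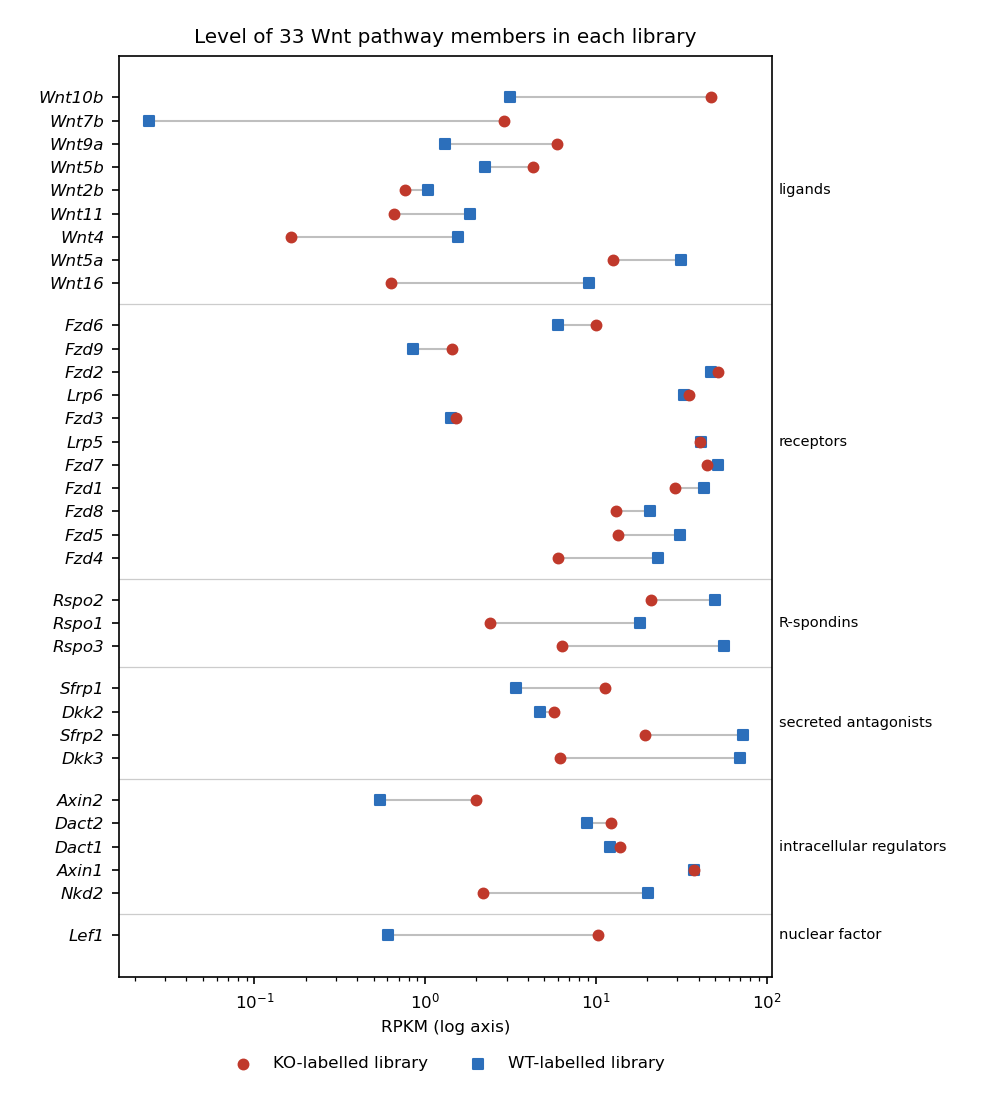
RPKM on a log axis of the 33 compared Wnt genes, grouped by role, with the KO-labelled cells as circles and the WT-labelled cells as squares. The R-spondins all lie lower in the KO-labelled cells, the co-receptors Lrp5 and Lrp6 and the scaffold gene Axin1 lie close in both, and the ligands go both ways.

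Different ligands led in the 2 libraries, Wnt10b in KO-labelled and Wnt5a in WT-labelled cells. Wnt10b, a ligand that activates beta-catenin signalling and is known for restraining fat cell formation, had 47.5 RPKM (1010 reads) in the KO-labelled cells, against 3.14 RPKM (66 reads) in the WT-labelled cells. It was 15.1-fold higher, with a log2 ratio of reads of 3.92 and a 95% interval from counting error of 3.56 to 4.30. Wnt5a, the main ligand of beta-catenin-independent signalling in limb and craniofacial outgrowth, had 12.5 RPKM (523 reads) in the KO-labelled cells, against 31.7 RPKM (1309 reads) in the WT-labelled cells. It was 2.53-fold lower (log2 ratio of reads -1.34, interval -1.49 to -1.19). Wnt10b thus stood at 3.79 times the level of Wnt5a in the KO-labelled cells and at 0.0990 times its level in the WT-labelled cells.

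As shares of the summed RPKM of the 19 Wnt genes, Wnt10b made up 62.9% in the KO-labelled and 5.95% in the WT-labelled cells, and Wnt5a 16.6% and 60.1% in the same order. The sum itself was 75.5 RPKM in the KO-labelled cells, against 52.8 RPKM in the WT-labelled cells. These are shares and sums of the deposited RPKM, in which the ceiling can lower the part of the leading genes. Wnt16, a ligand known from bone and joints, was the second most abundant in the WT-labelled cells. It had 0.629 RPKM (10 reads) in the KO-labelled cells, against 9.15 RPKM (144 reads) in the WT-labelled cells, a 14.6-fold lower level (log2 ratio of reads -3.86, interval -4.95 to -2.94).

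Wnt9a, which has a role in joint formation, took the third place in the KO-labelled cells, with 5.90 RPKM (187 reads) there and 1.31 RPKM (41 reads) in the WT-labelled cells. It was 4.51-fold higher (log2 ratio of reads 2.17, interval 1.68 to 2.70). Wnt7b, a ligand known from lung, kidney and bone development, had 2.89 RPKM (122 reads) in the KO-labelled cells and 0.0240 RPKM (1 read) in the WT-labelled cells. Its log2 ratio of reads was 6.92, with an interval of 4.41 to 12.23. Its antisense neighbour AU022754, whose reads may be mixed with its own, was at 0.106 RPKM in KO-labelled cells and at 0 in WT-labelled cells. Wnt4, known from kidney and gonad development, had 0.164 RPKM (6 reads) in the KO-labelled cells, against 1.55 RPKM (56 reads) in the WT-labelled cells (log2 ratio of reads -3.24, interval -4.74 to -2.03).

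The other expressed ligands differed less on the scale of RPKM + 1. Wnt5b, the close paralog of Wnt5a, was nearly 2-fold higher, at 4.26 RPKM (108 reads) in the KO-labelled and 2.23 RPKM (56 reads) in the WT-labelled cells (log2 ratio of reads 0.93, interval 0.45 to 1.42). Its direction was thus opposite to that of Wnt5a. Wnt11, another ligand of the beta-catenin-independent branch, had 0.658 RPKM (20 reads) in the KO-labelled cells and 1.83 RPKM (55 reads) in the WT-labelled cells. Its log2 ratio was -0.77 on log2(RPKM + 1) but -1.47 in reads (interval -2.29 to -0.71). Wnt2b, at 0.762 RPKM (26 reads) and 1.04 RPKM (35 reads) in the KO-labelled and WT-labelled cells, differed within counting error (interval -1.23 to 0.33).

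The remaining 10 ligands were under 1 RPKM in both libraries. Wnt1 had 3 reads in the KO-labelled and 2 in the WT-labelled cells. Wnt2 and Wnt6 had 0 reads in the KO-labelled cells and 6 reads each in the WT-labelled cells, and Wnt9b had 0 reads and 1 read in the same order. Wnt3 and Wnt10a were listed at equal low levels of about 0.034 and 0.054 RPKM in both. Wnt3a, Wnt7a, Wnt8a and Wnt8b were at 0 in both libraries, where 0 reads still allow up to 3.

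Several Wnt genes lie next to each other in the genome, and the neighbours of Wnt10b and Wnt9a were at or near 0 in both libraries. Wnt10b and Wnt1 are neighbours on chromosome 15, and Wnt1 was at 0.133 RPKM in the KO-labelled and 0.0893 RPKM in the WT-labelled cells. Wnt9a lies beside Wnt3a on chromosome 11, which was at 0 in both libraries. The pair Wnt3 and Wnt9b on chromosome 11 and the pair Wnt6 and Wnt10a on chromosome 1 were under 1 RPKM in both.

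**Figure D2:**
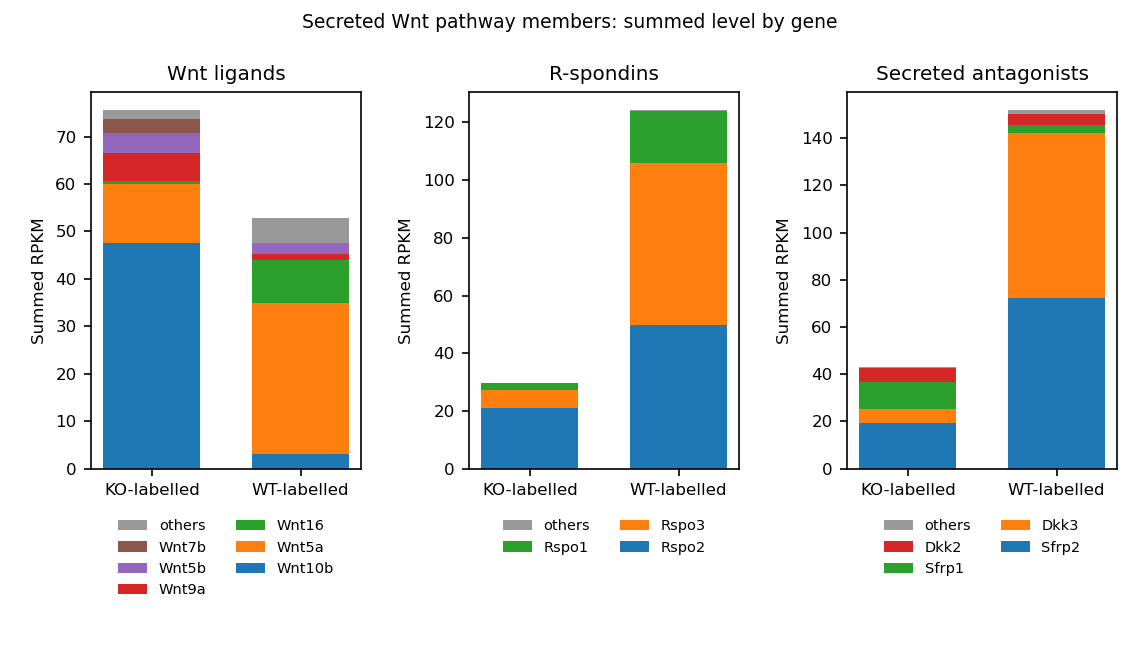
Summed RPKM of the Wnt ligands, the R-spondins and the secreted antagonists, with the KO-labelled cells on the left of each panel and the WT-labelled cells on the right, and each gene a colour. Wnt10b fills most of the ligand bar of the KO-labelled cells and Wnt5a most of that of the WT-labelled cells, while the R-spondin and antagonist bars are lower in the KO-labelled cells.

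Of the 11 receptor and co-receptor genes compared, 9 were within 2-fold, 0 were higher and 2 were lower past that limit in KO-labelled cells. The 2 are 18.2% of the receptors, against 11.9% of all genes 2-fold apart. Fzd10 was at 0 in both. The co-receptor genes were close: Lrp5 had 40.6 RPKM in the KO-labelled and 41.5 RPKM in the WT-labelled cells. Lrp6 had 35.4 RPKM (3163 reads) in the KO-labelled and 33.01 RPKM (2921 reads) in the WT-labelled cells. Fzd2 (51.9 and 47.3 RPKM in the KO-labelled and WT-labelled cells) and Fzd7 (44.7 and 51.9 RPKM, in the same order) were the most abundant Frizzled genes in both libraries.

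Fzd4, a receptor for several Wnts and for norrin in blood vessels of the eye, was lowest relative to the WT-labelled cells. It had 5.998 RPKM (211 reads) in the KO-labelled cells, against 23.0 RPKM (802 reads) in the WT-labelled cells, a 3.84-fold lower level (log2 ratio of reads -1.94, interval -2.17 to -1.72). Fzd5 had 13.5 RPKM (890 reads) in the KO-labelled cells, against 31.1 RPKM (2033 reads) in the WT-labelled cells, and was 2.31-fold lower (interval -1.32 to -1.09). Fzd1 (28.97 against 43.0 RPKM in the WT-labelled cells) and Fzd8 (13.2 against 20.7 RPKM) were lower by less than 2-fold. Fzd6, known for its part in the planar orientation of hair, was higher, at 10.0 RPKM (397 reads) in the KO-labelled and 6.01 RPKM (235 reads) in the WT-labelled cells (interval of the log2 ratio of reads 0.50 to 0.98). Fzd3 (1.51 and 1.41 RPKM in the KO-labelled and WT-labelled cells) and Fzd9 (1.44 and 0.853 RPKM) were low, with intervals that included 0.

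All 3 compared R-spondins were lower by more than 2-fold in KO-labelled cells, against 7.46% of all genes compared. Rspo3, which is needed for vessels of the placenta and for limb growth in mouse embryos, had 6.34 RPKM (145 reads) in the KO-labelled cells, against 56.3 RPKM (1275 reads) in the WT-labelled cells. It was 8.89-fold lower (log2 ratio of reads -3.15, interval -3.41 to -2.90). Rspo1, a factor in ovary formation, had 2.399 RPKM (42 reads) in the KO-labelled cells, against 18.1 RPKM (314 reads) in the WT-labelled cells, a 7.56-fold lower level (interval -3.42 to -2.45). Rspo2, which acts in limb and lung development, had 21.01 RPKM (670 reads) in the KO-labelled cells, against 49.7 RPKM (1567 reads) in the WT-labelled cells, a 2.36-fold lower level (interval -1.37 to -1.11).

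The R-spondin sum was 29.7 RPKM in the KO-labelled cells, against 124.2 RPKM in the WT-labelled cells. Rspo2 made up 70.6% of it in the KO-labelled and 40.0% in the WT-labelled cells, so its share was larger where its level was lower. Rspo4 had 0 reads in the KO-labelled and 2 in the WT-labelled cells. The receptors of the R-spondins lay in the same direction: Lgr6 had 1.99 RPKM (69 reads) in the KO-labelled cells, against 18.5 RPKM (634 reads) in the WT-labelled cells. Lgr5 had 0.111 RPKM (5 reads) and 3.80 RPKM (169 reads), and Lgr4, the most abundant of the receptors in both, 16.9 RPKM (816 reads) and 25.6 RPKM (1225 reads), in the same order. Lgr4 was lower by less than 2-fold (interval of the log2 ratio of reads -0.73 to -0.47).

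Sfrp2 was the most abundant secreted antagonist in both libraries, while the genes next to it in level differed, Sfrp1 in KO-labelled and Dkk3 in WT-labelled cells. Dkk3, a divergent Dkk protein that does not block the co-receptors in the way Dkk1 does, had 6.15 RPKM (197 reads) in the KO-labelled cells, against 69.9 RPKM (2218 reads) in the WT-labelled cells. It was 11.4-fold lower (log2 ratio of reads -3.51, interval -3.73 to -3.30). Sfrp2, a Wnt-binding protein of mesenchyme, had 19.3 RPKM (369 reads) in the KO-labelled cells, against 72.3 RPKM (1367 reads) in the WT-labelled cells, the highest level of any Wnt gene there. It was 3.74-fold lower (interval -2.07 to -1.74). Its relative Sfrp1 went the other way, with 11.4 RPKM (474 reads) in the KO-labelled and 3.39 RPKM (140 reads) in the WT-labelled cells, 3.35-fold higher (interval 1.47 to 2.03). Sfrp2 thus exceeded Sfrp1 by 1.70 times in the KO-labelled and by 21.3 times in the WT-labelled cells.

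Dkk2 was close, at 5.68 RPKM (201 reads) in the KO-labelled and 4.69 RPKM (164 reads) in the WT-labelled cells (interval -0.03 to 0.58). The sum of the Dkk, Sfrp and Wif1 genes was 43.2 RPKM in the KO-labelled cells, against 151.8 RPKM in the WT-labelled cells. Dkk3 made up 14.2% of it in the KO-labelled and 46.1% in the WT-labelled cells, and the antagonist Frzb, described below, is not in it. The other Dkk, Sfrp and Wif1 genes were under 1 RPKM in both libraries. Dkk1 is the classical inhibitor of Lrp5 and Lrp6 and itself a target of beta-catenin. It had 0 reads in the KO-labelled and 8 reads in the WT-labelled cells. With 0 read as 3 and the 8 reads taken as exact, Dkk1 was 2.69-fold lower. The upper end of the counting interval of its log2 ratio of reads was nearer to no difference, at -0.79. Sfrp4 had 6 and 13 reads, Wif1 6 and 7 reads and Sfrp5 1 read and 0 reads in the KO-labelled and WT-labelled cells, and Dkk4 was at 0 in both.

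Lef1, the nuclear partner of beta-catenin, showed the largest plain RPKM ratio among Wnt genes that reached 10 RPKM in either library. On log2(RPKM + 1) its ratio of 2.82 was smaller than that of Wnt10b (3.55) and, in size, than those of Dkk3 (-3.31) and Rspo3 (-2.97). Lef1 had 10.3 RPKM (363 reads) in the KO-labelled cells, against 0.603 RPKM (21 reads) in the WT-labelled cells. It was 17.1-fold higher (log2 ratio of reads 4.10, interval 3.46 to 4.81). Axin2, the inducible scaffold of the destruction complex, was low in both, with 1.99 RPKM (81 reads) in the KO-labelled and 0.547 RPKM (22 reads) in the WT-labelled cells. It was 3.64-fold higher (interval of the log2 ratio of reads 1.17 to 2.62), although its log2 ratio of 0.95 on RPKM + 1 fell short of the 2-fold limit. Axin1, the constitutive scaffold, was nearly equal, at 37.7 RPKM (1360 reads) in the KO-labelled and 37.4 RPKM (1334 reads) in the WT-labelled cells (interval -0.10 to 0.12).

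The Naked genes, which encode inhibitors that bind Dishevelled, differed from each other. Nkd2 had 2.18 RPKM (67 reads) in the KO-labelled cells, against 20.2 RPKM (615 reads) in the WT-labelled cells, 9.28-fold lower (log2 ratio of reads -3.21, interval -3.60 to -2.85). Nkd1 was under 1 RPKM in both, with 24 reads in the KO-labelled and 23 in the WT-labelled cells. The Dishevelled-binding genes Dact1 (13.9 and 12.1 RPKM in the KO-labelled and WT-labelled cells) and Dact2 (12.3 and 8.89 RPKM) were within 2-fold, and both intervals lay above 0 (0.01 to 0.39 and 0.22 to 0.71).

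**Figure D3:**
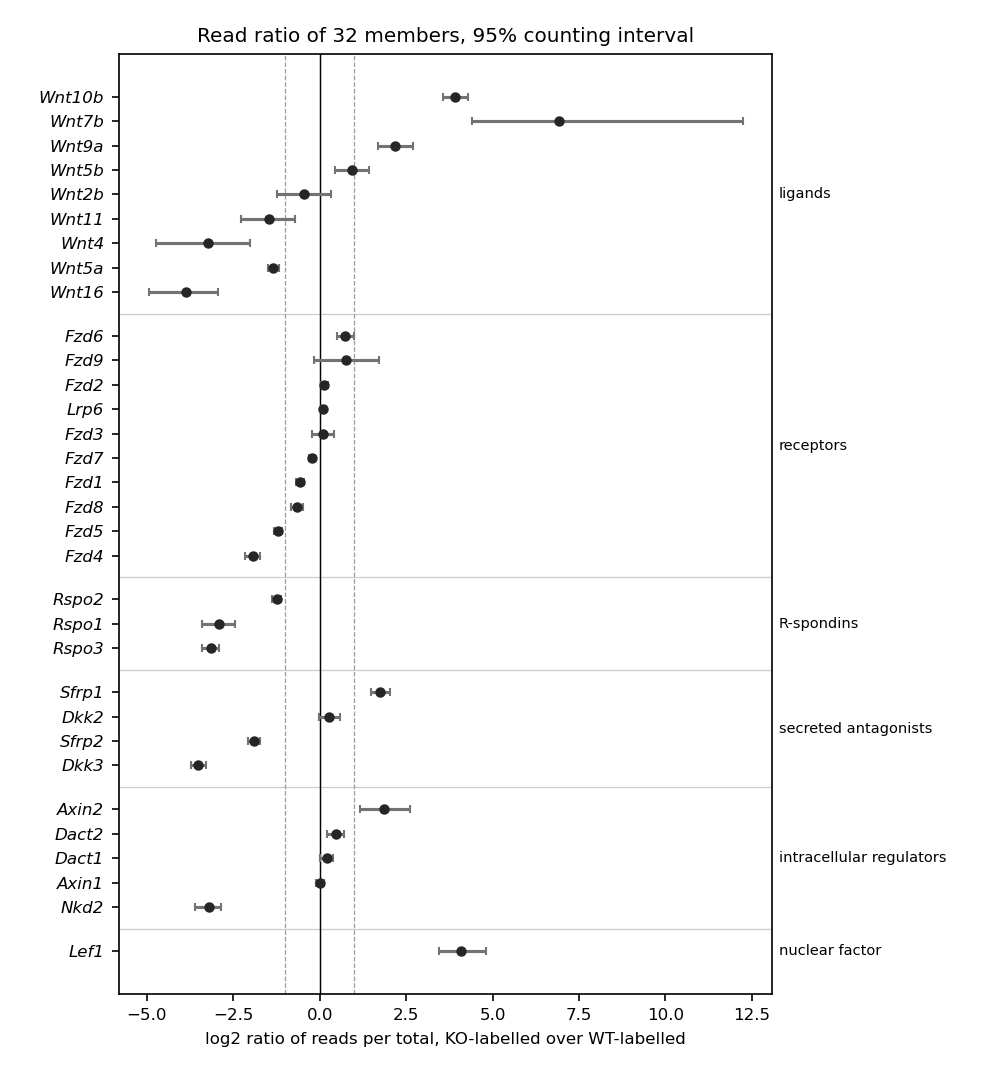
Log2 ratio of reads per total, KO-labelled over WT-labelled, for the 32 compared Wnt genes whose reads could be recovered, with 95% intervals from counting error and dashed lines at 2-fold. The ligands span both sides of 0, the 3 R-spondins lie on the lower side, and Lef1 lies at 4.10.

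Promoter sequences are shown for Lef1, Axin2, Wnt10b, Rspo1 and Dkk1, as examples of genes that were higher, lower or at 0 in the KO-labelled cells. Each is the 250 bases before the start site on the gene's strand, from RefSeq on GRCm38.p6, a later build than the mm9 named for the deposited data. The table held promoters for 34 of the 51 genes. The letters CTTTGAT and CTTTGAA, the core bound by TCF and LEF factors, were searched on both strands and are in capitals where found. They overlap no other motif searched.
The Lef1 window belongs to 1 of 4 Lef1 start sites in that table. Bases just after this start site were not found in the GENCODE M21 transcripts of Lef1. Those of the other genes shown were found in theirs.
Lef1, chr3:131110047-131110296, plus strand: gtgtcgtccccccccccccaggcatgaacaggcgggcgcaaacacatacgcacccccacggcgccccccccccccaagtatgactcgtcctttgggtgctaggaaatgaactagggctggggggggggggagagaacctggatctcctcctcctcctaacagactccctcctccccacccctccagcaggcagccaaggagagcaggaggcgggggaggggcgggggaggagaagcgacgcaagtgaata
Axin2, chr11:108920099-108920348, plus strand: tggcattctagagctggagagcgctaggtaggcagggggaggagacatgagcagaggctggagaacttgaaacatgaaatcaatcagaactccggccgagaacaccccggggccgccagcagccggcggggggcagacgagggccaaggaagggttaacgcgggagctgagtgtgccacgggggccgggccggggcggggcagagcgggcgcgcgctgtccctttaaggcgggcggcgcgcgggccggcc
Wnt10b, chr15:98778151-98778400, minus strand: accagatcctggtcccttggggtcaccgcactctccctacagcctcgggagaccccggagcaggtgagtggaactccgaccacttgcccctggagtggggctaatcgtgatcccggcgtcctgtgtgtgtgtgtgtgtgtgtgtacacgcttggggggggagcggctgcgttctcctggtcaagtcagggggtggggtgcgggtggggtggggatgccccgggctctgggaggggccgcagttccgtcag
Rspo1, chr4:124986180-124986429, plus strand: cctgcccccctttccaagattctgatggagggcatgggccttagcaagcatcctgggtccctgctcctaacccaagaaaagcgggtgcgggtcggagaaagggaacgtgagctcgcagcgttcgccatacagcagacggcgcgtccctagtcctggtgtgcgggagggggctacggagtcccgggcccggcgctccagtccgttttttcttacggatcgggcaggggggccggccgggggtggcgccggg
Dkk1, chr19:30549497-30549746, minus strand: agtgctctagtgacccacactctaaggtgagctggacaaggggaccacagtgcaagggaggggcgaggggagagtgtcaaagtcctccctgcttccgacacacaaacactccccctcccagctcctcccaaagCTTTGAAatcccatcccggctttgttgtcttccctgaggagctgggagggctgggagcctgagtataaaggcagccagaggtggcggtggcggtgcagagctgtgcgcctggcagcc

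Of these 5 windows, that of Dkk1 held the letters, at position -117 counted from the start site. Among all 40 promoters of Wnt genes in the table, 3 held them (7.5%), those of Dkk1, Wnt11 and Wnt5b, against 7.48% of all 32851 promoters of the same length. The letters are a description of these windows and say nothing of sites elsewhere, such as in introns. The printed windows of Lef1, Axin2, Wnt10b and Rspo1 held 66.4%, 69.2%, 66.8% and 66.8% G and C, above the median of 52.4% over all promoters, and that of Dkk1 held 60.8%.

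The rest of the pathway was read from 6 lists of genes outside the symbols above, whose counts stand beside the 4.42% higher, 7.46% lower and 11.9% 2-fold apart among all genes compared. In the beta-catenin destruction complex and cytoplasmic relay, 0 of 27 genes were 2-fold apart (median log2 ratio 0.11). The gene of beta-catenin itself, Ctnnb1, had 56.8 RPKM (1966 reads) in the KO-labelled and 58.9 RPKM (2017 reads) in the WT-labelled cells. The ceiling can compress differences of genes as abundant as this, of which the list holds several. The ends of the list were Dact3 (18.1 and 36.2 RPKM) and Ctnnbip1 (22.3 and 30.3 RPKM), lower in the KO-labelled cells, and Apc2 (2.77 and 1.40 RPKM) and Frat2 (8.88 and 6.47 RPKM), higher there, with the KO-labelled value first.

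The Wnt secretion genes Porcn and Wls had close RNA levels in the libraries. Porcn, which attaches the lipid, had 7.62 RPKM in the KO-labelled and 8.77 RPKM in the WT-labelled cells. Wls, which carries Wnts to the surface, had 42.4 and 44.6 RPKM in the same order. Among the 14 compared genes of the secretion and modulator list, 1 was higher by 2-fold or more and 4 were lower by 2-fold or more (median -0.07). That is 35.7% 2-fold apart, against 11.9% of all genes compared. Notum, an enzyme that strips the lipid from Wnts and a known beta-catenin target, was the higher one, at 16.1 RPKM (310 reads) in the KO-labelled and 6.24 RPKM (119 reads) in the WT-labelled cells. Frzb, a further Wnt-binding antagonist, had 0 reads in the KO-labelled cells and 9.35 RPKM (258 reads) in the WT-labelled cells. With 0 read as 3 and the 258 reads taken as exact, Frzb was 86.9-fold lower. The upper end of the counting interval of its log2 ratio of reads was -6.13, a somewhat smaller difference.

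Shisa2, a relative of the frog protein Shisa that retains Frizzled inside the cell, had 0.0999 RPKM (3 reads) in the KO-labelled cells, against 12.6 RPKM (373 reads) in the WT-labelled cells (log2 ratio of reads -6.97, interval -9.26 to -5.41). The secreted Wnt antagonist gene Draxin (0.262 against 2.95 RPKM in the WT-labelled cells) and the glypican gene Gpc6 (7.89 against 27.7 RPKM) were the other lower ones. Gpc3, another glypican gene, had 2.49 RPKM in the KO-labelled and 0.933 RPKM in the WT-labelled cells. Of 10 other receptors compared, Lgr5 and Lgr6 were the 2 that were 2-fold lower, and 0 were 2-fold higher (median -0.19). That is 20% apart, against the same 11.9%. Under 1 RPKM in both libraries were Ror1 (0 reads in the KO-labelled and 30 in the WT-labelled cells) and Musk (7 and 8 reads). The upper end of the list was Znrf3, a ligase that removes Frizzled from the surface, with 7.19 RPKM in the KO-labelled and 3.99 RPKM in the WT-labelled cells, and Ryk (36.6 and 32.7 RPKM).

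Of 18 nuclear factors compared, 2 were higher, 1 was lower and 15 were within 2-fold (median 0.03), so that 16.7% were 2-fold apart against 11.9% of all genes compared. Tcf7, which encodes TCF1 and is itself a beta-catenin target, was higher, at 9.09 RPKM (193 reads) in the KO-labelled and 3.81 RPKM (80 reads) in the WT-labelled cells. Tcf7l1 (30.8 and 34.9 RPKM in the KO-labelled and WT-labelled cells) and Tcf7l2 (19.1 and 16.0 RPKM) were close. Tcf7 and Lef1, the 2 lower genes of the TCF and LEF family in the WT-labelled cells, were thus the 2 with higher values in the KO-labelled cells by more than 2-fold. Pygo1, a beta-catenin coactivator (8.40 and 2.85 RPKM), was higher, and the co-repressor Tle1 (4.53 and 11.1 RPKM) was lower in the KO-labelled cells. Ctbp2 came next below, at 23.2 RPKM in the KO-labelled and 29.03 RPKM in the WT-labelled cells.

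Of 38 known beta-catenin targets compared, 2 were higher past 2-fold in KO-labelled cells, 3 were lower and 33 were within 2-fold (median -0.05). The 13.2% 2-fold apart is near the 11.9% of all genes compared. This share leaves out the readouts Lef1, Axin2, Dkk1 and Nkd1, which were counted among the Wnt genes. By RPKM, Lef1 was 17.1-fold and Axin2 3.64-fold higher in the KO-labelled cells, Axin2 with a log2 ratio of 0.95 on RPKM + 1. Dkk1 had 0 reads in the KO-labelled and 8 in the WT-labelled cells, and Nkd1 24 and 23. Within the list, the higher ones were Notum and Tcf7, both described above. The lower ones in it were Lgr5, the differentiation inhibitor gene Id2 (17.0 against 42.8 RPKM in the WT-labelled cells) and the activin inhibitor gene Fst (15.6 against 38.4 RPKM). Myc had 54.1 RPKM in the KO-labelled and 46.2 RPKM in the WT-labelled cells, and Ccnd1 had 64.6 and 71.0 RPKM in the same order. Other targets in the list were as abundant, such as Cyr61 (84.8 and 87.1 RPKM). The ceiling can compress differences of such genes, and so lower the share 2-fold apart. Some targets under 1 RPKM in both libraries also differed in reads. Tnfrsf19 had 40 reads in the KO-labelled and 5 in the WT-labelled cells, and Cdx1 had 0 and 7 in the same order.

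In the planar polarity and calcium branch, 2 of 29 genes were higher by 2-fold or more and 2 were lower by 2-fold or more (median -0.05). This 13.8% is also near the 11.9% of all genes compared. Vangl2, a core polarity protein gene, had 13.3 RPKM (287 reads) in the KO-labelled cells, against 3.04 RPKM (65 reads) in the WT-labelled cells. The calcium-responsive factor gene Nfatc2 (1.35 and 0.126 RPKM) was also higher, and the polarity gene Prickle1 (2.56 and 7.70 RPKM) and the kinase gene Camk2a (1.90 and 9.98 RPKM) were lower in the KO-labelled cells.

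**Figure D4:**
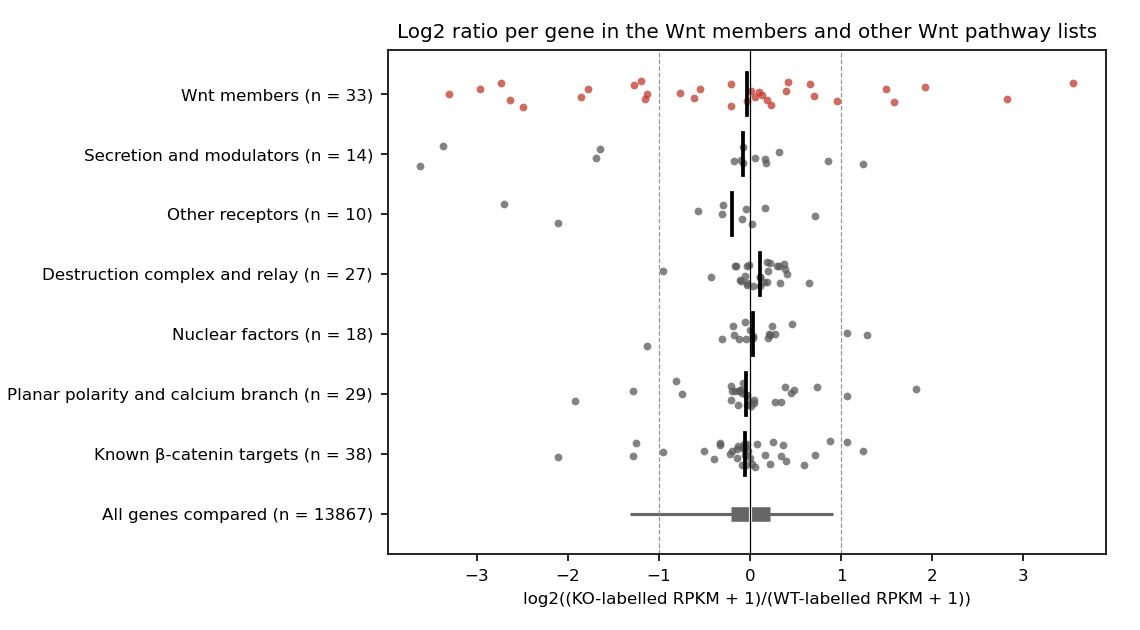
Log2 ratio on RPKM + 1, KO-labelled over WT-labelled, for each compared gene of the Wnt members and of the other Wnt pathway lists, with a black bar at each list's median and, for all 13867 genes, bars from the 25th to the 75th and from the 5th to the 95th percentile. The Wnt members spread from -3.31 to 3.55, while the 27 genes of the destruction complex lie between -0.96 and 0.65.

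RNA editing was not listed in the Wnt genes. The lists of edited sites held 0 sites in the 51 genes in either library. In the other pathway lists there was 1 site in each library. The KO-labelled cells had an intronic site of Btrc, a subunit of the ligase that marks beta-catenin for destruction, on chromosome 19 (45601276, mm9) with 3 edited of 9 reads (33.3%, Wilson 95% interval 12.1 to 64.6). The WT-labelled cells had a coding site of Dact3 on chromosome 7 (17470696, mm9) with 8 edited of 16 reads (50%, interval 28 to 72). Absence from the lists does not show that a gene was unedited.

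Some markers of other cell types differed between the same 2 libraries. The 6 endothelial markers summed to 0.421 RPKM in the KO-labelled and 4.21 RPKM in the WT-labelled cells, and the 8 epithelial markers to 1.79 and 2.41 RPKM in the same order. Among these, Tek (0.134 and 2.39 RPKM) and Cdh1 (0.0712 and 1.799 RPKM) were lower and Krt8 (1.04 and 0.0586 RPKM) was higher in the KO-labelled cells. The muscle factors Myod1, Myog, Myf5 and Pax7 and the glial factor Sox10 were at 0 in both. The 7 blood markers summed to 34.9 and 32.7 RPKM, mostly from Cd14 (23.7 and 19.7 RPKM). The 1 blood marker 2-fold apart was Csf1r, at 0.0811 RPKM in the KO-labelled and 1.75 RPKM in the WT-labelled cells, and Ptprc was at 0 and 0.07 RPKM in the same order. The 6 muscle markers summed to 7.74 RPKM in the KO-labelled and 10.4 RPKM in the WT-labelled cells, and the 5 bone markers to 28.0 and 33.1 RPKM in the same order. Runx2 (27.0 and 28.5 RPKM) made up most of the bone sum, while Sp7 (0.0459 and 2.13 RPKM) and Alpl (0.386 and 1.88 RPKM) were lower by more than 2-fold in the KO-labelled cells. The 6 cartilage markers summed to 17.1 and 66.3 RPKM, with Col2a1 at 0.571 RPKM in the KO-labelled and 48.0 RPKM in the WT-labelled cells, Comp at 1.90 and 5.45 RPKM, Sox9 at 14.5 and 12.8 RPKM, Acan at 0.07 and 0.03 RPKM and Matn1 at 0. The 7 neural markers summed to 73.0 and 92.3 RPKM, with Nes at 38.4 and 14.3 RPKM, Map2 at 15.8 and 32.7 RPKM, and Sox2 at 0.171 RPKM in the KO-labelled and 24.2 RPKM in the WT-labelled cells. The part of these cells, or of these genes, in the Wnt values was not tested.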

How the data were processed

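Poly(A)+ RNA-seq of 1 KO-labelled and 1 WT-labelled library was analysed, grouped by the genotype in the labels. STAR 2.4.0d, SAMtools and the build mm9 are named in the submitters' processing notes without their roles, and the labels name 2 library kits without saying which library had which. The authors deposited RPKM values per gene and library and, per the file headers, a log2 fold change and a GFOLD value on the log2 scale. The annotation, the counting rule and the use of strand were not given in the sources used here. Axin2, Dact1, Dact2, Fzd5, Fzd6, Lef1, Rspo3, Sfrp2, Wnt5a, Wnt7b and Wnt11 overlap exons of a gene on the opposite strand in GENCODE M21, so reads of the partners cannot be told apart. The editing lists deposited by the authors give counts of reads and edited reads per site.

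The deposited log2 fold change equals log2 of the ratio of reads plus 1 and a constant, which gave whole reads for all 2193 genes at 0 in 1 library (tolerance 0.1 reads). With these, totals were found at which gene lengths are whole numbers, and 95.4% of 17981 genes above 0 then had 1 solution for their reads. Of the Wnt genes, Lrp5, Wnt3 and Wnt10a had several. Intervals are exact 95% (Clopper-Pearson, conditional on the sum) for the ratio of reads per total. They cover counting error only, as there was 1 library per genotype. PCR copies could not be recognised, and the intervals take no account of them or of the ceiling on abundant genes. Log2 ratios use RPKM + 1, which understates differences of low genes, and genes reaching 1 RPKM in either library were compared. The steps were tested on simulated data without a ceiling on reads per base, and interval coverage was checked for unchanged genes only. That test therefore does not cover the folds or intervals of abundant genes. Python 3.11.15, pandas 2.3.3 and scipy 1.17.1 were used. Every member with at least 1 RPKM is named, and from each other list the 2 highest, the 2 lowest and all members 2-fold apart. The members and lists were chosen with earlier results of these data known.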

Additional observations from a re-analysis of the deposited data

How the results depend on the processing

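With 1 library per genotype, no replicate could be left out. No paired analysis was possible because there is 1 library per group. All 16 Wnt genes that were 2-fold apart remained so with pseudocounts of 0.1 and 0.5 RPKM, without a filter on low values, after centring on the median of all genes, and by the log2 fold change and GFOLD value of the authors' deposited table. Smaller pseudocounts and the deposited log2 fold change added Axin2 and Wnt11. With a floor of 5 RPKM, 25 Wnt genes were compared, Wnt4 and Wnt7b no longer among them. Of these 25, 4 were 2-fold higher and 10 were 2-fold lower, with a median of -0.21. Of all 11722 genes at that floor, 353 were 2-fold higher and 659 2-fold lower. A limit of 1.5-fold gave 8 higher and 13 lower Wnt genes, and one of 3-fold gave 3 higher and 7 lower. Counts over all genes were not made at these limits, so these Wnt counts cannot be set beside a share at large. Calling by counting intervals gave 12 higher and 15 lower of 32 Wnt genes. Of 13392 genes at large, 3755 were higher (28.0%) and 3682 lower (27.5%) by that call. Of 255 recomputed log2 ratios of single members, 29 moved by more than their counting error and 0 changed sign among those 2-fold apart. Of 144 recomputed counts and medians of the other lists, 21 moved by over 1.5 times (counts) or 0.1 (median log2). Small medians did change sign. With the deposited log2 fold change, whose median over all genes was 0.06, those of the Wnt genes and of the planar polarity list were 0.02 and 0.0022, against -0.03 and -0.05, and the ratio of Lrp5 was 0.02 against -0.03. Without a filter the all-gene median was -0.01. Values under about 1 RPKM rest on few reads, and values near the ceiling of 1 read per base can be compressed.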
